A study of Mus musculus with 12 samples.

Results

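B2 is a short interspersed element (SINE) of rodent genomes, and 55138 of the 205977 short genomic intervals counted by the authors (26.77%) carried B2 as their only repeat label and were tied to no 3′ untranslated region (3′ UTR). These 55138 intervals are described here, and 991 further B2 intervals that were tied to a 3′ UTR window serve as a contrast. The label could be checked against sequence for the few intervals that lie in annotated exons, and their sequences follow below. RNA was sequenced from dorsal root ganglia (DRG) of lumbar levels L4 to L6, 3 days after a crush of one sciatic nerve. All groups came from mice carrying Adv-Cre and RiboTag, in which Cre driven by the sensory neuron gene Advillin switches on HA-tagged Rpl22, a ribosomal protein, and naive groups carry the same alleles. The 4 groups of 3 libraries were the HA immunoprecipitate (IP) of injured ganglia, the IP of naive ganglia, the input RNA of injured ganglia taken before the IP, and the input RNA of naive ganglia. The design text speaks of 4 mice and takes ganglia of both kinds from each of them, and the mouse behind each replicate number is not stated. The p-values measure the spread between these libraries.

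B2 elements derive from a tRNA gene and carry an internal promoter for RNA polymerase III, and their 3′ end holds an A-rich tail with polyadenylation signals. B2 sequence also sits inside introns and untranslated regions of genes made by RNA polymerase II, where it is copied as a passive part of a longer transcript. B2 RNA made by polymerase III rises in mouse cells under heat shock and other stress and can bind RNA polymerase II. Alu-type elements of the mouse, which include B1, also have a polymerase III promoter, whereas L1 is a long interspersed element transcribed by polymerase II.

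Sequence was read from the GENCODE transcripts (release M21, build GRCm38) for the 1643 members (2.98%) that lie whole inside an annotated exon on either strand. The most frequent word of 12 letters in these intervals was CTACAGTGTACT, held by 404 of the 1643. It marks the 3′ part of the element, just before the A-rich tail. The sequences below are shown because, among the few tested members with exon sequence that were used, levels in IP differed between those with and without the word. Of these, the first 4 lines are the most counted members whose surroundings hold it, and the next 3 the most counted ones without it. The last is the interval opposite Tmem88b, which had the largest called rise after crush in IP. Each is written 5′ to 3′ on the deposited strand, with the word in capitals. Positions are taken as counted from 1 with both ends included. The deposited table does not say so, and under a count from 0 the base at the lowest position would fall outside the interval.
chr17:31307506-31307531, minus strand, opposite Slc37a1: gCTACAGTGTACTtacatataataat
chr7:128784212-128784237, minus strand, opposite Sec23ip: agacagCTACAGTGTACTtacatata
chr11:70034192-70034220, minus strand, opposite Dlg4: gacagCTACAGTGTACTtacaataaacaa
chr7:45473341-45473366, plus strand, opposite Dhdh: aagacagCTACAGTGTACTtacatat
chr7:141408503-141408528, plus strand, opposite Gatd1: aacaccattgcataggaaatataaaa
chr13:14053555-14053580, plus strand, opposite Ggps1: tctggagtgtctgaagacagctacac
chr15:103196670-103196695, plus strand, opposite Cbx5: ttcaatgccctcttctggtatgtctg
chr4:155782774-155782799, plus strand, opposite Tmem88b: ctgatgacagctacagtgtacccata

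On the deposited strand these members read as the sense strand of the element. In windows of 76 bases, which reach 20 bases before and 30 after an interval whose end minus start is 25, the polyadenylation signal AATAAA stood on the deposited strand in 942 of 1119 members (84.2%) and on the other strand in 9 (0.804%). The same windows held AATAAA on the deposited strand in 13.2% of 1296 Alu intervals, in 51.7% of 315 L1 intervals and in 36.1% of all 24980 intervals with exon sequence. The word CTACAGTGTACT was in 442 of the 1119 B2 windows (39.5%), in 0 Alu windows, in 0 L1 windows and in 2.05% of all windows. Of B2 intervals inside 3′ UTR windows, 53 of 283 (18.7%) held it. A run of 6 T, since runs of T end transcription by polymerase III, was searched as TTTTTT and stood on the deposited strand in 8.85% of B2 windows and 8.82% of all windows, and on the other strand in 66.7% and 28.9%. These matches describe letters only.

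The intervals were short and thinly counted. Of the 55138 members, 49727 (90.19%) had an end minus start of 25, and the full range was 4 to 101. They lay on 26663 plus and 28475 minus strands, 22215 (40.29%) had no count in any library, and the median member had 1 count over all 12 libraries. The 551 most counted members (1%) held 43.31% of all member counts, and the highest total was 2987. By GENCODE, 41.2% lay outside genes, 31.6% inside a gene on the other strand only, 25.5% in an intron on the gene's strand and 1.74% in an exon on the gene's strand. Some members had near-equal counts: of 669 members with at least 100 counts, 180 (26.91%) had counts that differed from another member's by no more than 2 counts or 5% in every library. The sequences of these members were not compared with each other. The 180 members formed 78 groups of up to 6 members, and 73 groups spanned at least 2 chromosomes. Repeat-free intervals on single chromosomes had such partners in 0% to 2.2%. Those intervals were not matched to the members in total count, so the shares do not give how many members match by coincidence. The near-equal counts leave the count of a single copy uncertain.

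Levels are given in CPM, the usual scaling of counts to library size, with the library size taken from the gene table. Library size was 41076255 to 41990355 counts in injured IP, 33508842 to 36338423 in naive IP, 29477848 to 31417170 in injured input and 29436945 to 33015740 in naive input. Markers of 17 sensory neuron genes summed to 23480 to 25620 CPM in IP and 18290 to 21770 in input, and those of 8 myelinating Schwann cell genes to 748 to 1202 in IP and 4154 to 5383 in input, with no gene of either list at 0. The IP libraries numbered 2 stood apart: intervals labelled srpRNA, the RNA of the signal recognition particle, reached 11060 CPM in injured and 20260 CPM in naive IP replicate 2, against 1906 to 3703 CPM in the other 4 IP libraries and 62790 to 163500 CPM in input. The part of this difference in the B2 results was not tested, and the summed B2 levels in IP, their split by place and the counts of called intervals are given below with and without those libraries.

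After crush, B2 RNA outside 3′ UTR windows was more abundant in the whole ganglion. Summed over all members, B2 intervals had 1891, 2187 and 2170 CPM in injured input, against 1155, 1496 and 1337 CPM in naive input. All injured libraries lay above all naive ones, at a ratio of 1.57 (log2 difference 0.65, SE 0.13), and the ratio within replicate numbers was 1.64, 1.46 and 1.62. In the exact two-sided permutation test the p was 0.1, which is the smallest that 3 libraries against 3 can give, so no summed level can pass 0.05 here. Scaled to the total of the interval table in place of the gene table, the log2 difference was 0.97. On that scale members held 0.7%, 1.18% and 0.768% of counts in injured input, against 0.42%, 0.488% and 0.412% in naive input. Injured input replicate 2 stood apart there: intervals labelled srpRNA or RNA took 47.5% of its total, against 64.7% to 69% in the other input libraries.

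In neuronal ribosome IP the difference was smaller, and within the spread of the libraries unless they are compared within replicate numbers. Members summed to 429.1, 683.3 and 391.9 CPM in injured IP, against 335.5, 508 and 314.4 CPM in naive IP. Replicate 2 was the highest of both groups, and the groups overlapped, with a ratio of 1.29 (log2 difference 0.37, SE 0.33, exact two-sided permutation p = 0.4). Within replicate numbers the ratio was 1.28, 1.34 and 1.25, so the injured library was above the naive one in each of the 3. Same-numbered injured and naive libraries deviated together in the gene table, and within numbers the log2 difference was 0.37 (SE 0.032) in IP and 0.65 (SE 0.053) in input, at an exact two-sided sign-flip p of 0.25 for both, the smallest that 3 pairs can give. In the interval table, deviations of injured input replicates 1 and 2 correlated best with a naive library of another number, so the pairing is less sure in input. Without both libraries numbered 2 the log2 difference was 0.34, without injured replicate 2 alone it was 0.12, without naive replicate 2 alone 0.58 and without naive replicate 3 alone 0.24. The injury difference in IP minus that in input was -0.29 (log2), with an SE of 0.35 over unpaired libraries. For numbers 1, 2 and 3 it was -0.36, -0.12 and -0.38. Pairing injured and naive libraries by number, with IP and input taken as independent of each other, gave an SE of 0.062. That SE does not measure the spread of the 3 values by number. The comparison within numbers was added after the data were seen.

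**Figure D1:**
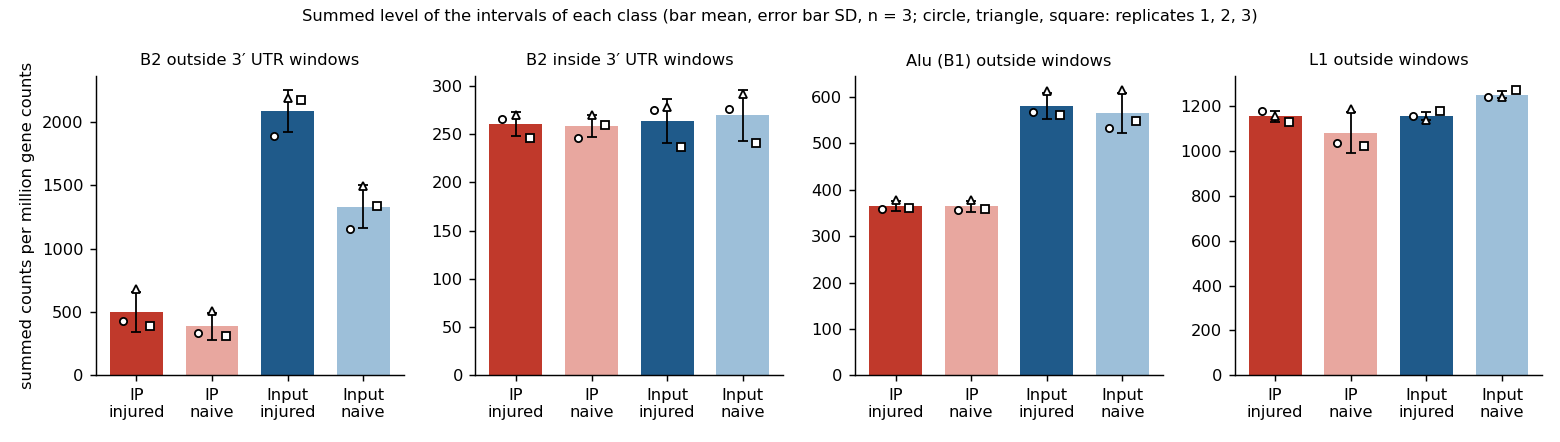
Summed CPM (y axis), scaled to the gene table, of 4 interval classes in injured IP, naive IP, injured input and naive input; bars are means of 3 libraries, error bars SD, and circle, triangle and square are replicates 1, 2 and 3. B2 outside 3′ UTR windows averaged 2082 CPM in injured input and 1329 CPM in naive input, while the other 3 classes were at ratios of 0.924 to 1.03.

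Alu, L1, B4 and ID intervals, and B2 intervals inside 3′ UTR windows, were at input ratios of 0.924 to 1.03 after crush. Alu intervals outside 3′ UTR windows averaged 580.5 CPM in injured input and 565.3 CPM in naive input, a ratio of 1.03 (exact permutation p = 0.6, n = 3 each), and their ratio in IP was 1.00. L1 intervals averaged 1155 CPM in injured input and 1250 CPM in naive input, a ratio of 0.924 without overlap, and B4 and ID, further SINE families, were at 0.98 and 1.01. The 991 B2 intervals inside 3′ UTR windows averaged 263.1 CPM in injured input and 269.1 CPM in naive input, a ratio of 0.978, and were at 1.01 in IP. Other labels differed more: in input ERVK, a retrovirus family, was at 0.879 and srpRNA at 0.694, both with overlap, and RNA at 0.729 without overlap, while compound labels that include B2 were at 1.73 without overlap. The srpRNA and RNA ratios leaned on injured input replicate 2. Within replicate numbers 1, 2 and 3 they were 0.977, 0.418 and 0.818 for srpRNA and 0.988, 0.482 and 0.813 for RNA. The ratio of B2 to Alu counts needs no library size: it was 3.33, 3.57 and 3.87 in injured input, against 2.17, 2.43 and 2.44 in naive input (log2 difference 0.61, SE 0.085, exact permutation p = 0.1, the smallest possible). The ratio of B2 outside to B2 inside 3′ UTR windows was 6.88, 7.87 and 9.16 in injured input, against 4.18, 5.14 and 5.57 in naive input, again without overlap. In IP the ratio to Alu was 1.2, 1.81 and 1.09 in injured libraries, against 0.942, 1.34 and 0.876 in naive ones, and these groups overlapped.

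The counts behind the higher B2 level after crush were spread over the genome. How reads matching many copies were counted is not given. If such reads were divided among copies, a rise at few copies could appear on many chromosomes. The values below therefore do not say how many copies rose. In input, the summed level was above naive on 21 of 21 chromosomes, with groups that did not overlap on 20 of them, and apart from Y the ratio ran from 1.39 to 1.76. In IP it was above naive on 20 of 21 chromosomes, with overlapping groups on each. Members on the plus strand were at a ratio of 1.53 and those on the minus strand at 1.61 in input. Members with a total of 1 to 9 counts were at 1.49, those with 10 to 49 and with 50 to 199 each at 1.77, and the 312 with at least 200 at 1.39. Without the 20 most counted members, which held 7.762% of the counts, the ratio was 1.58, and with members of near-equal counts reduced to 1 per group it was also 1.58.

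The level differed with the place of the copy relative to genes. Members in an exon on the gene's strand summed to 49.44, 52.34 and 52.41 CPM in injured input, against 47.42, 48.71 and 45.97 CPM in naive input, a ratio of 1.08 without overlap. Members in introns on the gene's strand were at a ratio of 1.54, members inside a gene on the other strand only at 1.48, and members outside genes at 1.69. Outside genes, members over 20 kb past any gene end on their strand were at 1.71 and those nearer to a gene end at 1.67. The ratio of counts outside genes to counts in exons was 17.9, 19.5 and 19.7 in injured input, against 10.5, 13.6 and 12.7 in naive input, a log2 difference of 0.64 (SE 0.12, exact permutation p = 0.1, without overlap). In IP, exon members were at a ratio of 1.01 and members outside genes at 1.4, with overlapping groups for both, and without both IP libraries numbered 2 at 0.994 and 1.4.

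**Figure D2:**
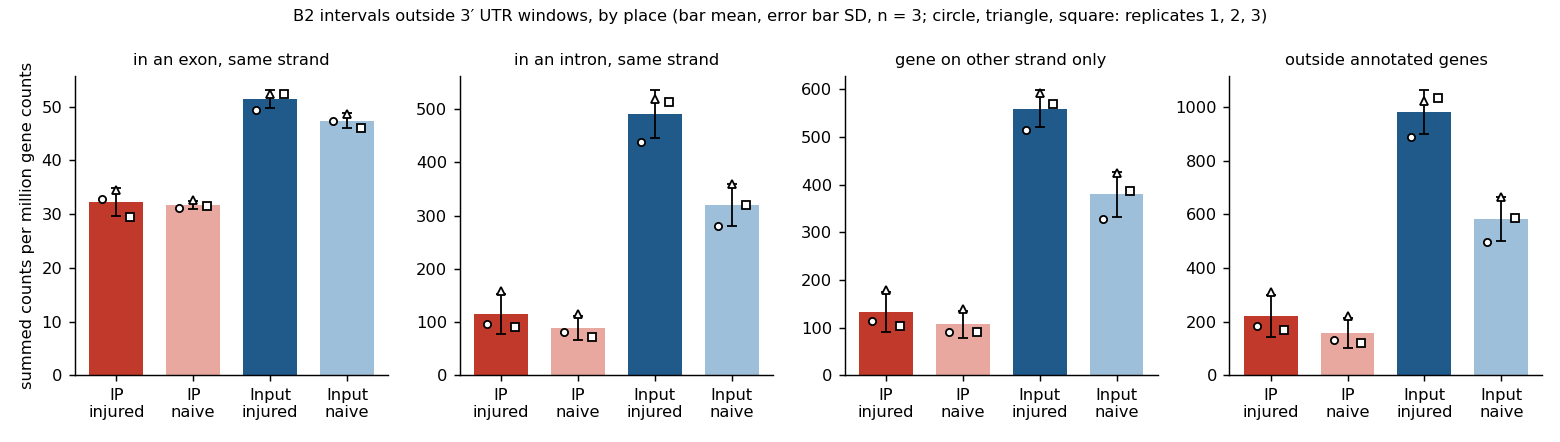
Summed CPM (y axis) of B2 intervals outside 3′ UTR windows, split by place relative to GENCODE genes, in injured IP, naive IP, injured input and naive input; bars are means of 3 libraries, error bars SD, symbols the replicates. Exon members were at a ratio of 1.08 in input after crush, and members outside genes at 1.69.

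Marker lists of several cell types differed with injury in input. The 8 macrophage markers summed to 276.4 to 337.4 CPM in injured input, against 114.6 to 138.2 CPM in naive input, none at 0, and to 27.1 to 74.86 CPM in injured IP, against 13.55 to 26.38 CPM in naive IP. The 8 Schwann cell markers summed to 4154 to 5283 CPM in injured input, against 4166 to 5383 CPM in naive input, with overlap. The 8 satellite glia markers summed to 4320, 3974 and 4426 CPM in injured input, against 3860, 3757 and 3949 CPM in naive input, without overlap, and were also higher in injured IP within each replicate number. The 17 sensory neuron markers were lower, at 19260, 18290 and 21080 CPM in injured input, against 21340, 21300 and 21770 CPM in naive input, without overlap. None of these genes was at 0. Their part in the B2 difference was not tested, and in bulk samples a different number of cells and a different amount of RNA per cell cannot be told apart.

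B2 RNA was scarce in the ribosome IP relative to input. In naive ganglia members summed to 386 ± 106 CPM in IP and 1329 ± 171 CPM in input (SD, n = 3 each), a ratio of 0.285 with no overlap (exact permutation p = 0.1, the smallest possible). In injured ganglia they summed to 501 ± 159 CPM in IP and 2082 ± 166 CPM in input, a ratio of 0.234, again with no overlap. Within replicate numbers the ratio in naive ganglia was 0.291, 0.34 and 0.235, highest for replicate 2, and without both IP libraries numbered 2 the log2 difference was -2.02 in naive and -2.34 in injured ganglia. Alu intervals were at 0.646 in naive and 0.629 in injured ganglia, L1 at 0.863 and 0.998, and B2 inside 3′ UTR windows at 0.962 and 0.992. Other labels were as low as B2 or lower: compound labels with B2 at 0.247 and 0.22, RNA at 0.109 and 0.131, scRNA at 0.069 and 0.0916 and srpRNA at 0.0283 and 0.0423, so a low level in IP was not particular to B2. Exon members were at 0.67 in naive ganglia, while members outside genes were at 0.263 and members in introns at 0.274, and without both IP libraries numbered 2 these were 0.661, 0.218 and 0.24. The B2 to Alu ratio differed by -1.18 (log2, SE 0.2) between IP and input in naive and by -1.43 (SE 0.23) in injured ganglia.

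This result depends on the scale. Scaled to the total of the interval table, the log2 difference between IP and input was -0.18 in naive ganglia (main -1.81) and -0.71 in injured ganglia (main -2.1). Intervals labelled srpRNA or RNA took 47.5% to 69% of that total in input and 7% to 26.3% in IP. With these 2 labels left out of the total, which was chosen after the data were seen, the log2 differences were -1.57 and -1.86. A list of 5 nuclear RNA genes (Malat1, Neat1, Xist, Meg3 and Snhg11), none at 0, summed to 568.2 to 881 CPM in IP and 1980 to 3203 CPM in input, and their part in the B2 result was not tested.

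Single intervals were tested across the whole table with edgeR's quasi-likelihood F test and Benjamini-Hochberg adjustment over 23162 intervals that passed the filter on low counts. Only 1024 members (1.86%) passed it, and since a copy may pass through the group where it is high, the counts below describe tested members and not all members. The tested members held 51.3% to 56% of member counts in each library.

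In input, 141 tested members were called higher after crush (13.8%) and 1 lower, beside 1.89% higher and 1.53% lower among all tested intervals. In IP, 23 were called higher (2.25%) and 0 lower, beside 2.01% higher and 0.38% lower among all tested intervals, so the IP share is near the background. In IP, 175 members had an unadjusted p under 0.05, and DESeq2 called 25 higher and 0 lower. The median fitted log2 change of tested members was 0.47 in IP and 0.64 in input, against -0.02 and -0.13 over all tested intervals. The IP median was 0.13 without injured IP replicate 2, 0.33 without naive IP replicate 3, 0.45 without naive IP replicate 1 and 1.07 without naive IP replicate 2, and 0.59 without both IP libraries numbered 2. Among 224 tested Alu intervals 2 were called higher in input and 0 lower, and among 136 tested L1 intervals 0 higher and 2 lower. The IP count fell to 9 without naive IP replicate 1, to 9 without naive IP replicate 3, to 11 without injured IP replicate 2 and to 14 without both IP libraries numbered 2. The input count was 60 in all without naive input replicate 1, 74 without injured input replicate 2 and 93 without naive input replicate 2. With the replicate number as a block, 39 were called higher in IP (3.81%), beside 3.63% of all tested intervals.

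By place, of the tested members in exons 0 of 43 were called after crush in either fraction, while in input 28 of 208 in introns, 34 of 268 opposite a gene and 79 of 505 outside genes were called higher. The 141 lay on 20 chromosomes, and counted 1 per group of near-equal counts they came to 127. Of the 23 members called higher in IP, 19 were among the 141 called higher in input, which is 82.6% of the IP calls and 13.5% of the input calls. Of the 141, 138 had a fitted log2 change above 0 in IP, beside 71.97% of all tested members and 48.32% of all tested intervals. Their median log2 change was 2.08 in IP and 2.86 in input. In 20 cases the member lay on the strand of a gene that was itself tested. Of these 20 host genes 0 were called higher and 2 lower, with log2 changes from -0.64 to 0.68 and a median of -0.08. These members were chosen for their own rise, which had a median of 2.61, so nothing is read from their lying above the host.

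Between fractions, 565 tested members (55.2%) were called lower and 1 higher in IP than in input of naive ganglia, beside 10.2% lower and 2.29% higher among all tested intervals. In injured ganglia 783 (76.5%) were lower and 2 higher, beside 9.69% lower and 4.8% higher. The naive count was 356 in all without naive IP replicate 1 and 355 without naive IP replicate 3. Without both IP libraries numbered 2, 592 of 1278 tested members were lower in naive and 862 in injured ganglia. Among 224 tested Alu intervals 21 were lower in naive and 19 in injured ganglia. The injury change did not differ between IP and input beyond the test for any interval: 0 of 1024 members were called higher or lower in the interaction (39 at an unadjusted p under 0.05, DESeq2 0), as were 0.0% and 0.0% of all tested intervals.

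**Figure D3:**
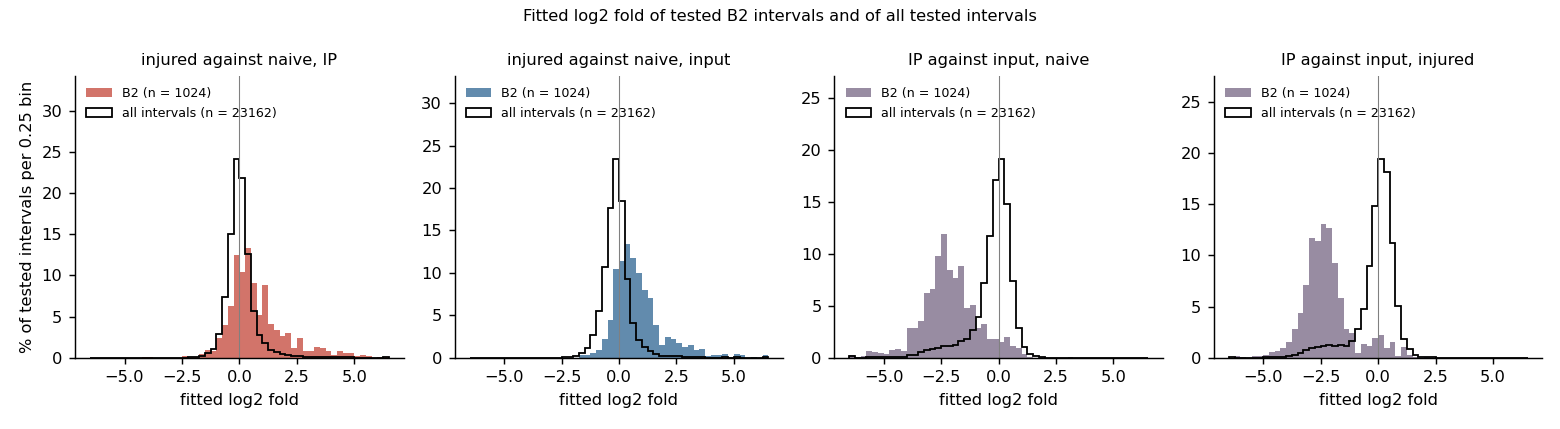
Fitted log2 fold (x axis) against the share of tested intervals per bin of 0.25 (y axis) in 4 comparisons; filled bars are the 1024 tested B2 intervals and the outline all 23162 tested intervals, with values past the axis placed in the end bins. B2 intervals lie right of the outline after crush (median 0.64 in input) and left of it in IP against input (median -2.21 in naive ganglia).

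The word CTACAGTGTACT split the tested members by their level in IP against input. Of 71 tested members with exon sequence that were used here, each at most 30 bases long, 24 held the word between 20 bases before and 30 after the interval, 37 did not, and 10 lay too near an exon end for that window. In naive ganglia 12 of the 24 and 3 of the 37 were called lower in IP than in input, with median log2 differences of -1.57 and -0.12, and in injured ganglia 16 of the 24 and 3 of the 37, with medians of -1.92 and -0.03. Among members opposite a gene alone the naive counts were 10 of 15 with the word and 0 of 15 without. Among exon members on the gene's strand they were 2 of 8 with the word and 3 of 20 without in naive ganglia, and 5 of 8 and 3 of 20 in injured ganglia. The split was made after the values had been seen, so no test is given.

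**Figure D4:**
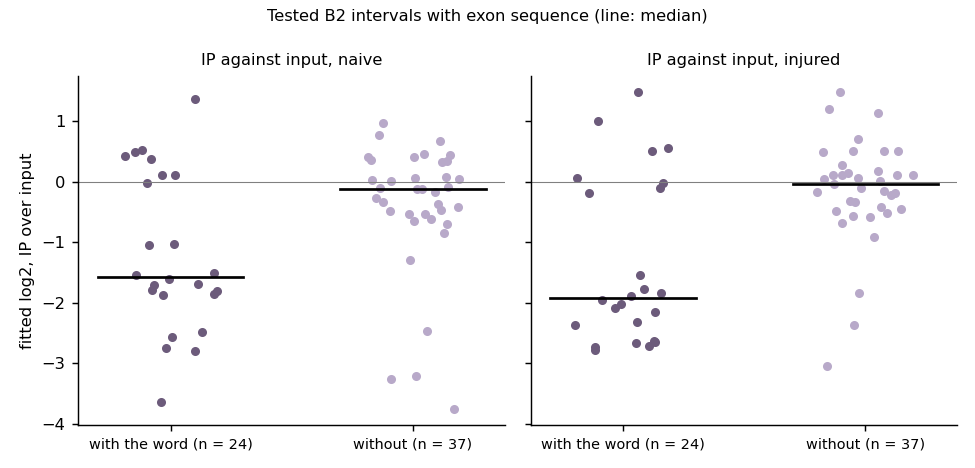
Fitted log2 difference of IP over input (y axis) for tested B2 intervals with exon sequence, at most 30 bases long and outside chromosome 18. They are split by whether the window holds the most frequent 12-letter word. Points are intervals, lines medians, left panel naive and right panel injured ganglia. The 24 intervals with the word have medians of -1.57 and -1.92, and the 37 without it -0.12 and -0.03.

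The 4 printed members with the word were low in IP. The interval opposite Slc37a1 had 26, 75 and 24 counts in injured IP, against 176, 188 and 167 in injured input, and 16, 47 and 25 in naive IP, against 123, 180 and 191 in naive input, a log2 difference of -2.37 in injured and -2.56 in naive ganglia (edgeR adjusted p = 0.000811 and 0.000678). IP and input did not overlap in either state, and replicate 2 was the highest IP library in both. A copy on chromosome 13 had near-equal counts in every library, so these reads cannot be given to this copy alone. Of the 4, only the interval opposite Dhdh was called after crush, with 123, 113 and 117 counts in injured input, against 49, 52 and 48 in naive input (log2 1.24, edgeR adjusted p = 0.00854). Among the printed members without the word, the interval opposite Cbx5, a heterochromatin protein gene, had 34, 33 and 49 counts in naive IP, against 34, 48 and 38 in naive input.

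Single copies showed large differences from low counts. The most counted member by mean CPM was chr7:126232347-126232388 (minus strand), in an intron of the noncoding RNA gene 1700123J17Rik. It had 662, 713 and 784 counts in injured input, against 137, 164 and 114 in naive input, without overlap (log2 2.38, SE 0.42, edgeR adjusted p = 0.017). The call was lost without each input library other than injured replicate 1, at adjusted p of 0.0588 to 0.0769. In IP it had 71, 205 and 68 counts in injured libraries, against 20, 37 and 12 in naive ones, which did not overlap but missed the threshold (log2 2.1, edgeR adjusted p = 0.0894). With the replicate number as a block it was called (log2 2.07, adjusted p = 3.94e-08), as it was by DESeq2 (0.00295) and without injured IP replicate 2 (log2 1.38, adjusted p = 0.0231), and over all alternatives the adjusted p ran up to 0.33.

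The next most counted members did not share that difference. The interval chr11:54798903-54798928 had 394, 357 and 413 counts in injured input, against 237, 369 and 314 in naive input (log2 0.35, adjusted p = 0.544). For chr9:105103485-105103526 the values were 292, 331 and 346 counts in injured input, against 286, 419 and 315 in naive input (log2 -0.07, adjusted p = 0.931). The intervals chr7:126643221-126643250 and chr16:13765589-13765614 had the same counts in 11 of 12 libraries and 70 and 68 in the other, so their reads cannot be told apart. All 5 were called lower in IP than in input in both states.

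In IP after crush, the largest called rise was at chr4:155782774-155782799, opposite an exon of Tmem88b, a gene for a transmembrane protein. It had 19, 14 and 12 counts in injured IP, against 0, 0 and 0 in naive IP, at least 12.9-fold higher when 3 counts are allowed to the naive group (edgeR adjusted p = 0.00262). Tmem88b itself had 17.6, 21 and 19 CPM in injured IP, against 0.467, 1.01 and 0.17 CPM in naive IP (log2 5.12, adjusted p = 3.17e-07). The sources used here do not say whether the counting used strand, so reads of the gene and of the interval opposite it cannot be told apart.

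Another called rise lay opposite Il21r, the receptor gene of interleukin 21. The interval chr7:125617276-125617316, opposite that gene, had 22, 28 and 17 counts in injured IP, against 0, 1 and 0 in naive IP, a ratio of 57.8 with a 95% counting interval of 10 to 2310 (adjusted p = 0.000861). In input it had 49, 83 and 83 counts in injured libraries, against 1, 8 and 0 in naive ones. Il21r itself had 1.29, 2.04 and 1.38 CPM in injured input, against 0.429, 0.593 and 0.552 CPM in naive input (adjusted p = 0.0127). The interval alone had 1.47, 2.5 and 2.73 CPM in injured input, so unlike at Tmem88b it was above the gene. In IP after crush Il21r was also higher (log2 2.02, edgeR adjusted p = 0.0315), but from very low levels. It had 0.232, 0.202 and 0.551 CPM in injured IP, against 0.0623, 0.0289 and 0.142 CPM in naive IP.

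The other 4 largest IP rises lay outside genes. The interval chr4:11255302-11255332, 5983 bases past the end of Dpy19l4, had 11, 11 and 6 counts in injured IP, against 0 in each naive IP library, at least 8.05-fold higher (adjusted p = 0.00203). The interval chr12:104608927-104608952, 78790 bases past Dicer1, had 6, 10 and 3 counts in injured IP, against 0 in each naive IP library, and 56, 41 and 65 in injured input, against 1, 3 and 0 in naive input. The intervals chr4:11015713-11015752 and chr14:47131408-47131433 had 2, 6, 8 and 7, 11, 6 counts in injured IP, against 0, 0, 0 and 0, 1, 0 in naive IP. The IP calls of the last 3 were each lost without injured IP replicate 2 (edgeR adjusted p of 0.0962 to 0.12), without naive IP replicate 1 (0.0809 to 0.141) and without naive IP replicate 3 (0.0933 to 0.159). That of chr12 was also lost without naive IP replicate 2, that of chr4 without naive IP replicate 2 or injured IP replicate 3, and that of chr14 without injured IP replicate 1.

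In input, 2 of the largest called rises had no count in any naive library. The interval chr7:128570637-128570676, outside genes, had 17, 28 and 18 counts in injured input, and chr15:78964253-78964282, opposite Triobp, had 21, 28 and 14, against 0 in each naive library, both at least 20.9-fold higher (adjusted p = 0.000451 and 0.000952). Opposite Mrpl37, a mitochondrial ribosomal protein gene, chr4:107061561-107061586 had 44, 37 and 28 counts in injured input, against 0, 1 and 0 in naive input, a ratio of 109 with a counting interval of 19.1 to 4330 (adjusted p = 1.63e-05). Mrpl37 itself did not pass the test (log2 0.03, adjusted p = 0.915), with 26.6, 27.6 and 36.5 CPM in injured input, against 28.5, 29.1 and 31.4 CPM in naive input.

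The remaining 3 of the largest input rises had 1 count each in naive input. The interval chr4:71526196-71526221, 239818 bases past the nearest gene end on its strand, had 25, 21 and 31 counts in injured input, a ratio of 76.7 (counting interval 13.4 to 3070). The interval chr19:36914479-36914504 had 17, 19 and 22 counts there, a ratio of 57.8, and chr9:119111686-119111729, opposite Dlec1, had 15, 27 and 11, a ratio of 52.8. The call at chr9 was lost without injured input replicate 2 (adjusted p = 0.062) or naive input replicate 1 (0.0596). In naive IP the 3 intervals had 0 to 2 counts per library.

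**Figure D5:**
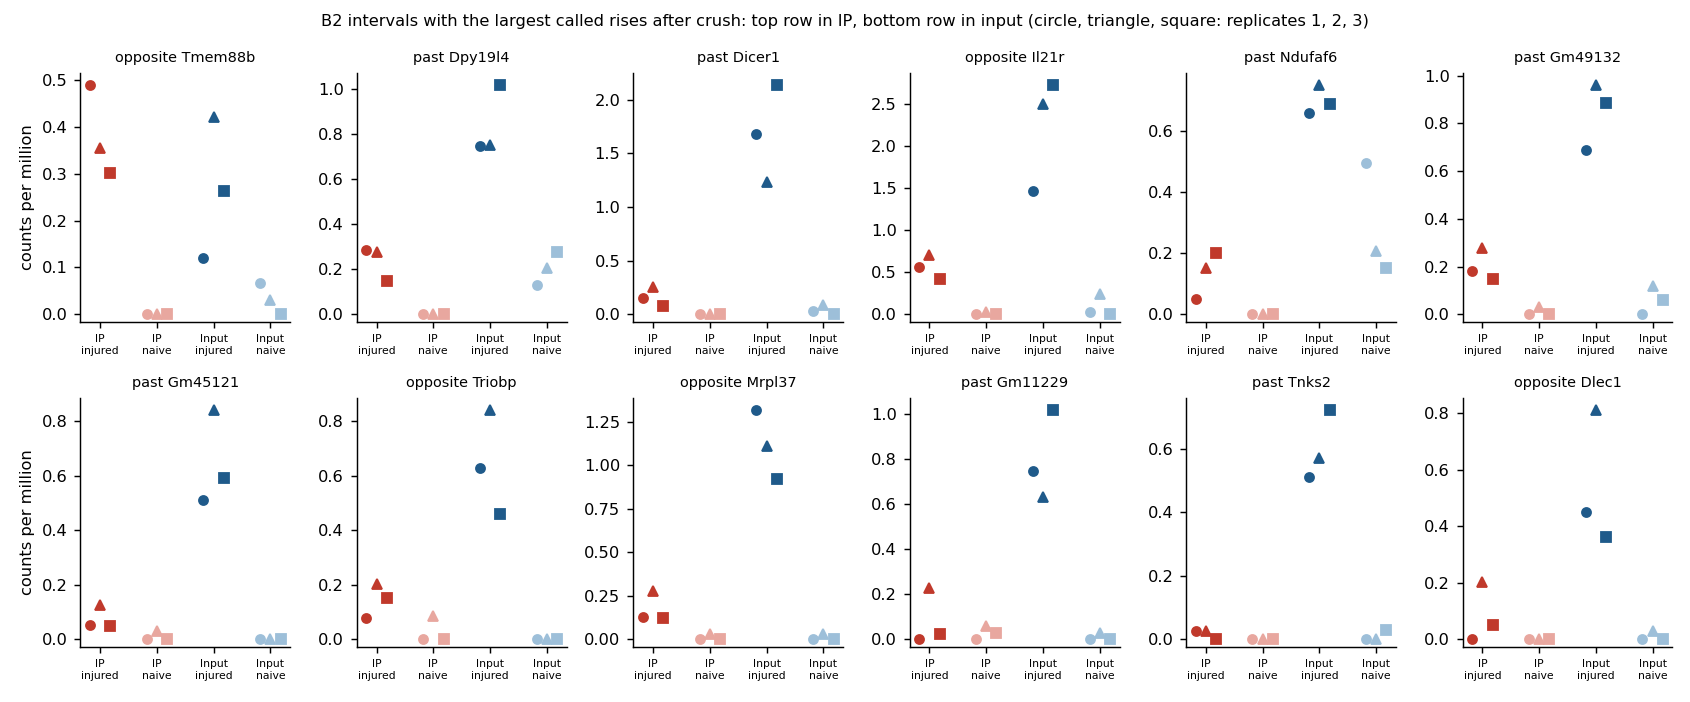
CPM (y axis) of the 12 B2 intervals with the largest called rises after crush, in injured IP, naive IP, injured input and naive input; each symbol is a library (circle, triangle, square for replicates 1, 2, 3), the top row is named in IP and the bottom row in input. Titles give the gene on the opposite strand or the nearest gene that ends before the interval; naive IP libraries hold 0 to 3 counts in each panel.

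One tested member was called lower after crush in input and, with another, higher in IP. The interval chr17:83577840-83577865 lay 8092 bases past the end of Kcng3, a potassium channel subunit gene, on its strand. It had 13, 7 and 11 counts in injured input, against 22, 27 and 40 in naive input (log2 -1.51, SE 0.35, edgeR adjusted p = 0.016), and 42, 29 and 45 counts in injured IP, against 13, 7 and 11 in injured input (log2 1.61, adjusted p = 0.00252). Kcng3 itself had 22, 18.9 and 20.8 CPM in injured input, against 32.5, 35.3 and 34.5 CPM in naive input (log2 -0.73, adjusted p = 0.000708), and was higher in IP than in input of injured ganglia (log2 0.69, adjusted p = 0.00027). The fall of the interval in input was lost without injured input replicate 2 (adjusted p = 0.0911) or naive input replicate 3 (0.0748). The interval chr10:29203418-29203443, in an intron of Gm49353, had 165, 120 and 140 counts in naive IP, against 60, 90 and 66 in naive input (log2 0.91, adjusted p = 0.0128), a call lost without naive IP replicate 1 (0.101) or naive input replicate 1 (0.0601). In injured ganglia it had 126, 98 and 133 counts in IP, against 73, 73 and 33 in input (log2 0.72, adjusted p = 0.0484), and this call was lost in 9 of the alternatives tried (adjusted p of 0.0556 to 0.207), among them those without injured IP replicate 1, injured IP replicate 3 or injured input replicate 3.

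The members lowest in IP relative to input had 0 or 1 count in IP. In naive ganglia these included chr10:45481983-45482041 in an intron of Lin28b, a gene for an RNA-binding protein that blocks let-7 maturation, with 0 counts in each IP library, against 5, 10 and 12 in input, at least 9.49-fold lower (adjusted p = 0.00114). In injured ganglia chr19:38923319-38923344 had 0 counts in each IP library, against 4, 5 and 16 in input, at least 10.2-fold lower. The interval chr14:74908199-74908233, in an intron of Lrch1, had 0, 1 and 0 counts in injured IP, against 20, 18 and 14 in injured input, a ratio of 0.0158 with a counting interval of 0.000392 to 0.0919 (adjusted p = 0.000162). The others named by the same rule lay outside genes or opposite Arhgef1, with 0 counts over the 3 IP libraries or, at chr7:11375103-11375132, with 1, against 15, 22 and 26 in injured input. Lrch1 itself was at a log2 difference of -0.15 (adjusted p = 0.122).

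Genes of the polymerase III machinery were mostly not called after crush. Of 30 listed genes 5 were higher and 1 lower in IP, and 1 higher and 2 lower in input, beside 11.5% higher and 7.12% lower of all tested genes in IP and 7.79% higher and 8.26% lower in input. Gtf3c4, a subunit of the factor TFIIIC that binds internal polymerase III promoters, rose in IP (log2 0.31, adjusted p = 0.00663), as did the polymerase subunit gene Polr3d (log2 0.32, adjusted p = 0.0306), and in input Gtf3c3, another TFIIIC subunit gene, fell by 0.3 (log2, adjusted p = 0.0434) and Snapc5, of the complex that binds snRNA promoters, fell by 0.39 (adjusted p = 0.0477).

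Of 30 genes whose products bind, process or silence SINE RNA or loci, 4 were higher and 0 lower in IP, and 1 higher and 1 lower in input. Over all tested genes 11.5% were higher and 7.12% lower in IP, and 7.79% higher and 8.26% lower in input. The list was thus near or below the share of all genes, and the genes named next are single cases. Adarb1, which edits adenosine in double-stranded RNA, had 182, 170 and 183 CPM in injured IP, against 99.8, 105 and 98.9 CPM in naive IP (log2 0.82, adjusted p = 2.68e-06), and rose in input as well (log2 0.66, adjusted p = 2.68e-05). The mRNA export factor Nxf1 (log2 0.28, adjusted p = 0.0283) and Zfp36, which binds AU-rich mRNA (log2 0.57, adjusted p = 0.0403), rose in IP. Zfp36 was low there, at 1.94, 1.77 and 2.13 CPM in injured IP, against 1.09, 1.44 and 1.39 CPM in naive IP. In input it had 5.07, 4.87 and 5.49 CPM in injured libraries, against 5.71, 4.38 and 5.7 CPM in naive ones, with overlap. Hells, a chromatin remodeller linked to DNA methylation of repeats, fell by 0.71 in input (log2, adjusted p = 0.0193), with 3.66, 4.09 and 2.69 CPM in injured input, against 6.08, 6.81 and 4.23 CPM in naive input. Of 38 tested regeneration-associated genes, 34 were higher and 1 lower in IP, and 33 higher and 1 lower in input, with the smallest p at Stmn4, a stathmin gene (log2 3.06 in IP, adjusted p = 1.27e-08). Their gene bodies held 9 B2 members on the same strand in 7 genes, and 0 of the 9 passed the filter on low counts.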

How the data were processed

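The authors deposited raw counts per gene and raw counts per genomic interval for all 12 libraries. The labels' protocols name RNeasy columns and a stranded total RNA kit with ribosomal RNA depletion, and STAR, HTSeq, bcl2fastq 2.17 and the builds mm10 and GRCm38 are listed in the submitters' processing notes. How intervals were selected, whether strand was used and how reads matching many copies were counted: not given in the sources used here. Members were rows labelled B2 alone with no 3′ UTR entry; members, gene lists and tests were chosen with earlier results of these data known. CPM are counts over gene table totals (27 entries with date-like names left out) times TMM factors. The interval and gene tables were fitted with edgeR 4.0.16 (R 4.3.3, filterByExpr, robust quasi-likelihood F test, 12 libraries, 4 group means, Benjamini-Hochberg, threshold 0.05). DESeq2 1.42.0 was an alternative. The test was also run on simulated data with the same dispersion for every interval and independent libraries, which gives no error rate for these data. Summed levels and ratios were compared by exact permutation (scipy 1.17.1). Bounds allow 3 counts to a group with none, and intervals cover counting error only. Place and sequence came from GENCODE M21 on GRCm38; gene bodies of either strand were used to keep 1 named interval per gene, or per 10000 bases. The intervals named were the 5 with the highest mean, the 6 largest rises and 4 largest falls after crush, and the 4 highest and 4 lowest in IP against input, among called members with non-overlapping groups; where fewer were called, all were named or summarised. The main fit and the permutation tests used no pairing. Same-numbered libraries deviated together in the gene table for injured against naive (r of 0.191 to 0.597, each number its own best match). For that comparison numbers were taken as paired only in the values within numbers, the sign-flip test and the replicate block. For IP against input they were not taken as paired (0.0472 to 0.23), though each number but injured replicate 2 was its own best match. In the interval table injured against naive numbers were their own best match in IP (0.0615 to 0.184). In input, numbers 1 and 2 were not (0.0155 and 0.0886), and number 3 was (0.388). A gene that the rule for listed genes would name is not reported here.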

Additional observations from a re-analysis of the deposited data

Results flagged for a closer look

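Intervals with a compound label that includes B2 lie outside the set described above and were used in no test of single intervals. These 2166 intervals outside 3′ UTR windows averaged 60.96 CPM in injured input and 35.3 CPM in naive input, a ratio of 1.73 with no overlap (exact permutation p = 0.1, the smallest possible with 3 against 3), and 13.99 CPM in injured IP and 8.936 CPM in naive IP, a ratio of 1.54 with overlap. They were singled out because data outside the main measurement showed a signal above the naive libraries. The cause was not tested.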

How the results depend on the processing

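Counts of called B2 intervals moved by over 1.5 times under some settings, each with fewer samples or fewer intervals tested or with the pairing in the model. For injured against naive in IP the count of 23 was 14 with only the libraries compared, 39 with the replicate block (paired by number), 14 without both IP libraries numbered 2 (settings on libraries numbered 2 were chosen after seeing the data), 10 without all 4 libraries numbered 2, and 9 to 28 on leaving out 1 library. For injured against naive in input the count of 142 was 41 with a minimum count of 30, 41 without all 4 libraries numbered 2, and 60 to 150 on leaving out 1 library; the block gave 203, within 1.5 times. For IP against input the naive count of 566 was 236 with a minimum count of 30, 329 with only the libraries compared, 377 without all 4 libraries numbered 2, and 355 to 586 on leaving out 1 library, and the injured count of 785 was 271 with a minimum count of 30. Interval table totals moved 3 summed levels, to 0.97 for injured against naive in input, and to -0.18 and -0.71 for IP against input in naive and injured ganglia. Every other setting tried for the counts, the summed levels and the ratios of B2 to Alu and L1 kept the direction and stayed within 1.5 times or within 1 SD. Of 34 results for single named intervals, 13 lost the call under 1 or more settings, no called one changed sign, and 1, the injury difference in IP at chr7:126232347-126232388, gained the call under 6 settings. The interaction gave 0 calls under every setting. Most members have too few counts for a test of their own: 1024 of 55138 were tested.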
